A study of Mus musculus with 24 samples.

Results

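The 9 genes described here encode cell-surface receptors for extracellular matrix: the discoidin-domain collagen receptors Ddr1 and Ddr2, the integrin alpha subunits Itga1, Itga2, Itga3 and Itgav, and the integrin beta subunits Itgb1, Itgb6 and Itgb8. They were taken by symbol from the 55487 genes of the deposited table, and every one of the 9 was found in it once. All 9 passed the filter on low counts in the fit to all mice.

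Integrins are alpha-beta pairs. Alpha1 and alpha2 with beta1 bind collagens, alpha3 with beta1 binds laminins of basement membranes and anchors podocytes to the glomerular basement membrane, and alphav with beta6 or beta8 binds the RGD motif of the latency peptide of TGF-beta and releases or exposes the active cytokine. The discoidin receptors are receptor tyrosine kinases that are switched on by triple-helical collagen: in the kidney, DDR1 is known mainly from epithelial and glomerular cells and DDR2 from fibroblasts and other mesenchymal cells, where it binds fibrillar collagens. In Alport syndrome the type IV collagen network of the glomerular basement membrane is defective, and interstitial fibrosis follows.

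Whole kidneys of 24 male mice on the B6 background were sequenced at 15 weeks of age. All 24 mice had X-linked Alport syndrome (the crossed line is named for Col4a5), so no kidney without the disease was among them. The mice differed in Nbl1, which encodes a secreted antagonist of bone morphogenetic proteins: 13 were heterozygous (HET) and 11 were wild type (WT), with 6 HET and 6 WT in batch 1 and 7 HET and 5 WT in batch 2. The labels name separate animals and do not say what distinguished the batches, which allele of Nbl1 or Col4a5 was used, or whether mice were littermates.

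The libraries held 29551543 to 33020033 expected counts in batch 1 and 36380502 to 50746817 in batch 2. Rn7s1, a structural RNA of the signal recognition particle, took 20% to 22% of all TPM (a level per transcript length, scaled to a common total) in each batch 1 library, whereas the leading gene of each batch 2 library took 4.37% to 14.9%. TPM levels are therefore set side by side only within a batch. In 3 libraries of batch 1 the check genes went against the label: the library labelled HET replicate 6 had 9.21 CPM (counts scaled to a common library total) of Nbl1, against 3.85 to 4.88 in the other HET libraries of its batch, and the libraries labelled WT replicates 1 and 2 had 5.39 and 3.61, against 6.96 to 7.74. Htr6 went against the label in the same 3 libraries, with 0, 26 and 14 counts in that order, against 8 to 49 in the other HET and 0 to 2 in the other WT libraries. The 3 were kept under their labels, and the fits, the genotype tests and the correlations given below were also computed without them (the permutation p of the correlations other than those with the collagen score were not). In batch 2 Nbl1 overlapped between the labels, with 7.84 CPM in HET replicate 8 and 7.02 in WT replicate 11, whereas Htr6 did not overlap. Kidney markers were present as the label says: 6 proximal tubule genes summed to 11715 to 14894 CPM per library.

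By GENCODE M21 on GRCm38, the discoidin receptors are Ddr1 (ENSMUSG00000003534) at chr17:35681567-35704621 and Ddr2 (ENSMUSG00000026674) at chr1:169972307-170110762, both on the minus strand. Itga2 (ENSMUSG00000015533, chr13:114833081-114932100) and Itga1 (ENSMUSG00000042284, chr13:114953096-115101964) are neighbours on the minus strand of one chromosome, 20995 bases apart. Itga3 (ENSMUSG00000001507) is at chr11:95044474-95076801 on the minus strand, and Itgav (ENSMUSG00000027087) at chr2:83724397-83806916 on the plus strand. The beta subunit genes are Itgb1 (ENSMUSG00000025809) at chr8:128685654-128733200 on the plus strand, and Itgb6 (ENSMUSG00000026971, chr2:60598292-60722643) and Itgb8 (ENSMUSG00000025321, chr12:119158022-119238802) on the minus strand. Genes on the other strand share exon bases with 3 members: Gm4577 with 4.52% of those of Ddr1, 3110045C21Rik with 0.97% of those of Ddr2 and Gm13684 with 5.9% of those of Itgav. Gm49395 shares 3.68% of the exon bases of Itga1 on the same strand. No source used here states whether the counting used strand, so reads from these stretches cannot be assigned to one gene.

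Promoters are printed for the 4 members that the results below turn on, to show how different their start regions are. Each is a 300-base window around a RefSeq gene start, nearly all of it upstream, on GRCm38.p6, 5′ to 3′ on the gene's strand, with matches in capitals to the GC box motif GGGCGG, the box named CCAAT for its letters, the TATA box motif TATAAA, the AP-1 motif TGANTCA or the TEAD motif GGAATG, searched on both strands.
Ddr2, chr1:170088895-170089194, minus strand: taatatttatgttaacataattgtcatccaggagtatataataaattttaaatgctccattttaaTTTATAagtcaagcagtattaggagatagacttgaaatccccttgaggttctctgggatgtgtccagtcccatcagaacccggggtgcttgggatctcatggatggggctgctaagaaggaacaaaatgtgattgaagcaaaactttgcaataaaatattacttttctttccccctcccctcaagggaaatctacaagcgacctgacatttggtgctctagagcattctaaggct
Itga3, chr11:95076665-95076964, minus strand: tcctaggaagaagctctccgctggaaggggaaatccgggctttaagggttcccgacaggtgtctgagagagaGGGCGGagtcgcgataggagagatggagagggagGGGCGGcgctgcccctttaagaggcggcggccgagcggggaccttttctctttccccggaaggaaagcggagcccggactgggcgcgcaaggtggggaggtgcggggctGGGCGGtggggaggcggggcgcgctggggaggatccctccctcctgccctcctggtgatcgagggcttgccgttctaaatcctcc
Itgb1, chr8:128685404-128685703, plus strand: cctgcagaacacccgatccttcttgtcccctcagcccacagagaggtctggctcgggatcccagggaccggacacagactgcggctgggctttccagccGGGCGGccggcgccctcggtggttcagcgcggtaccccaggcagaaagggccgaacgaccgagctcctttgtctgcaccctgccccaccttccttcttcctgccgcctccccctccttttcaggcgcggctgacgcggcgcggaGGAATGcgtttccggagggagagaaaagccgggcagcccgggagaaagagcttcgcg
Itgb8, chr12:119238227-119238526, minus strand: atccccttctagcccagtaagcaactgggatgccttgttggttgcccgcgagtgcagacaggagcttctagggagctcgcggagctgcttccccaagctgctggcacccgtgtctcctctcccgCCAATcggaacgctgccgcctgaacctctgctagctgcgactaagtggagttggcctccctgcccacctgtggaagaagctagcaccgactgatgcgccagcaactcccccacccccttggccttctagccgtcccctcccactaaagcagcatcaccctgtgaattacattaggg
The Ddr2 window was 39.0% GC with 2 CpG dinucleotides, against a median of 52.7% and 7 over the 32851 mouse promoters of the table. Its only match was a TATA box read on the opposite strand (printed TTTATA), at position -185 from the start, and this RefSeq start lies 21818 bases inside the GENCODE gene. The windows of Itga3 (66.7% GC, 24 CpG, 3 GC boxes) and Itgb1 (67.3% GC, 27 CpG, a GC box at -151 and a TEAD match at -7) were rich in CpG. Itgb8 had a CCAAT box at -126. Of all promoters in the table, 35.7% held a GC box, 37.4% a CCAAT box, 13.6% a TATA box, 7.81% an AP-1 match and 14.7% a TEAD match. A match describes the letters and is not evidence of binding.

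Itgb1 was the most abundant member in all 24 kidneys and Itga2 the least abundant in all 24. Itgb1 encodes the beta1 chain shared by the collagen and laminin receptors. Its TPM was 45.9 to 62.5 in batch 1 (mean 55.5 ± 5.17, SD, n = 12) and 102 to 139 in batch 2 (123 ± 10.8, n = 12). Itgb6, the epithelial beta6 chain, came second by median in both batches, with 43.0 ± 6.65 TPM in batch 1 and 59.4 ± 7.09 in batch 2. Itgb8, the beta8 chain that holds latent TGF-beta, had 30.6 ± 3.08 and 38.6 ± 2.49 TPM and was below Itgb6 in all 24 libraries. Of the summed TPM of these 3 beta chains, Itgb1 made up 43.0% ± 2.42 in batch 1 and 55.7% ± 3.41 in batch 2 (SD, n = 12 each).

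Among the alpha chains the order was Itgav, Itga1, Itga3, Itga2 in every library. Itgav, which pairs with beta6, beta8, beta1 and other beta chains, had 37.4 ± 3.66 TPM in batch 1 and 44.5 ± 2.80 in batch 2 (SD, n = 12). The collagen IV receptor chain Itga1 had 19.7 ± 1.61 and 29.4 ± 2.50 TPM, and the laminin receptor chain Itga3 had 9.25 ± 1.42 and 17.9 ± 2.45. Itga2, the other collagen-binding alpha chain, stayed between 0.29 and 2.32 TPM in all libraries. Itgav made up 55.9% ± 1.63 of the 4 alpha chains' TPM in batch 1 and 48.1% ± 2.32 in batch 2, and Itga2 made up 0.845% ± 0.392 and 0.993% ± 0.492.

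Ddr1 was above Ddr2 in every kidney. Ddr1 had 23.5 ± 2.75 TPM in batch 1 and 46.1 ± 6.56 in batch 2, and Ddr2 had 4.37 ± 0.460 and 9.07 ± 1.02 (SD, n = 12 each). The ratio of the pair was 5.40 ± 0.593 in batch 1 and 5.09 ± 0.559 in batch 2. Neighbours whose order was not the same in all 24 libraries were Ddr1 with Itgav (Ddr1 higher in 0 of 12 libraries of batch 1 and 8 of 12 of batch 2), Ddr1 with Itgb8 (0 and 10 of 12), Ddr1 with Itga1 (11 and 12 of 12) and Itgav with Itgb6 (Itgav higher in 1 and 0 of 12).

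**Figure D1:**
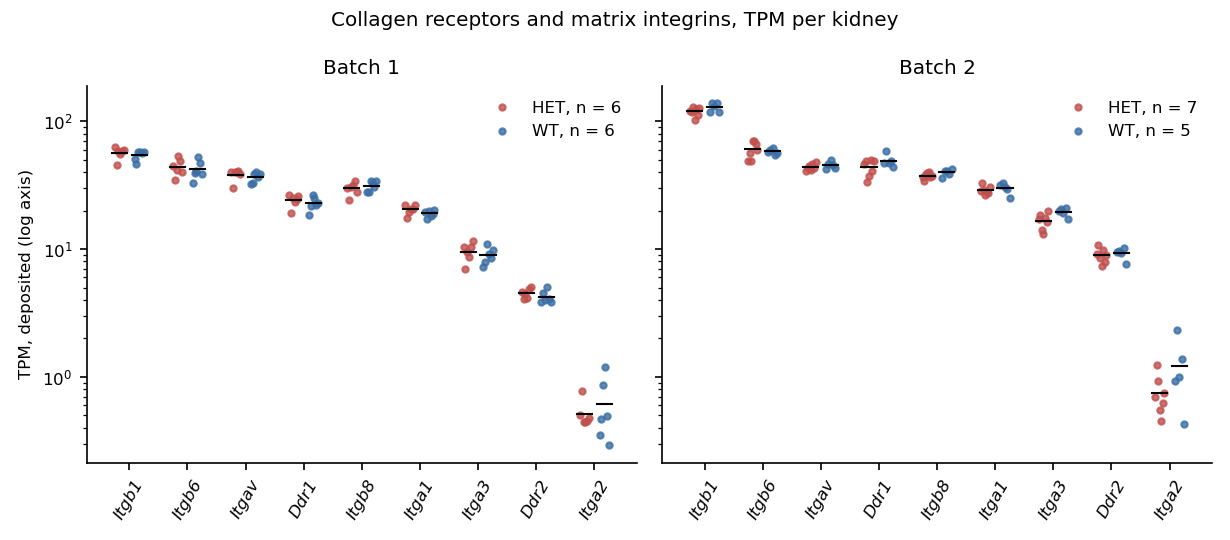
TPM of the 9 members (log axis) in each HET (6 in batch 1, 7 in batch 2) and WT (6 and 5) kidney, with the members in 1 order in both panels; points are kidneys and bars group means. Itgb1 is highest and Itga2 lowest in all 24 kidneys, and HET and WT points overlap for every member in both batches.

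Members were called between the batches at about the rate of all genes, in both directions. Relative to the median of all genes, Itgb6, Itgb8, Itgav and Itga1 were lower in batch 2 than in batch 1. Itgb1, Ddr2, Itga3 and Ddr1 were higher. Both held on the count and the TPM scale, whereas Itga2 was above the median on the count scale and below it on the TPM scale. What differed between the batches is not in the labels. In edgeR's quasi-likelihood test on counts scaled between libraries (TMM), with genotype as a term and Benjamini-Hochberg adjusted p under 0.05 over 19476 genes as the call rule, 6 of 9 members were called, 3 higher and 3 lower in batch 2, beside 63.3% of all genes tested (32.2% higher and 31.2% lower). The log2 fold change of batch 2 against batch 1 was -0.57 for Itgav (SE 0.04; edgeR adjusted p = 1.4e-13), -0.48 for Itgb8 (SE 0.05; adjusted p = 3.2e-09) and -0.32 for Itgb6 (SE 0.06; adjusted p = 2.5e-05). It was 0.28 for Ddr2 (SE 0.04), 0.24 for Itgb1 (SE 0.03) and 0.12 for Itga3 (SE 0.04). Itga1, at -0.065 (edgeR adjusted p = 0.0736), was also called lower with DESeq2 (adjusted p = 0.0315) and with RLE size factors (edgeR adjusted p = 0.0418). In limma on log2(TPM + 1) all 9 members were called, as were most of all genes tested, the larger part of them higher. The CPM ranges of the batches did not overlap for Itgav (274 to 335 in batch 1, 180 to 229 in batch 2) and Itgb1 (269 to 301 and 303 to 378), as was so for 20.0% of genes. On the TPM scale the median of all genes shifted by 0.66 between the batches, and Itga1, Itgav, Itgb6 and Itgb8 took the opposite sign. Relative to that median, Itgav was at -0.41, Itgb8 at -0.32, Itgb6 at -0.20, Itgb1 at 0.49 and Ddr2 at 0.25 on the log2(TPM + 1) scale. Batch is therefore a term in every fit below, and levels are read within a batch.

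The comparison of HET with WT asks whether losing a copy of Nbl1 went with another level of these receptors. No member was called, in all mice together or within a batch. In all mice, edgeR called 0 of 19476 genes (0%), with 798 at an unadjusted p under 0.05, and DESeq2 and limma also called 0. In batch 1, edgeR called 0 of 18494 genes (0%; 522 at an unadjusted p under 0.05), limma called 0 and DESeq2 1, the non-member Slitrk6. In batch 2, edgeR called 1 of 17955 (0.00557%), Htr6, DESeq2 called 27 (18 higher, 9 lower) and limma 0. Without the 3 libraries that went against their labels, 2 genes were called in all mice, Htr6 and Nbl1 itself, and again no member. Those libraries had been picked by these same 2 genes, so the 2 calls follow from that choice and are no separate result.

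Ddr2 had the smallest p of the members in all mice. Its CPM ran from 34.3 to 42.7 (median 38.3) in the 6 HET kidneys of batch 1 and from 31.6 to 39.4 (median 35.0) in the 6 WT kidneys. In batch 2 it ran from 43.4 to 49.3 (median 45.8) in 7 HET kidneys, and WT replicates 7 to 11 had 43.0, 42.7, 45.0, 47.8 and 36.0. HET medians were the higher ones in both batches, the groups overlapped in both, and WT replicate 11 was the lowest of batch 2. The log2 fold change was 0.10 (SE 0.04; 95% interval 0.01 to 0.19; edgeR unadjusted p = 0.0318, adjusted p = 0.997), with 0.09 in each batch alone. Without WT replicate 11 the batch 2 value was 0.027, and on the log2(TPM + 1) scale it was -0.045. An exact two-sided permutation of genotype within batch, 1 of 27 such tests over the members, gave p = 0.0384 for Ddr2, and p = 0.0431 without the 3 libraries that went against their labels. On the log2(TPM + 1) scale the difference was 0.02 and the exact permutation p was 0.683.

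Itgb8 had the smallest p of the members within batch 1. The 6 HET kidneys of batch 1 had 278 to 347 CPM (median 317) and the 6 WT kidneys 333 to 354 (median 347). In batch 2 the 7 HET kidneys had 198 to 289 (median 246), and WT replicates 7 to 11 ranged from 208 to 267 (median 227). The batch 1 groups overlapped from 333 to 347 CPM, and in batch 2 the WT values lay inside the HET range. The log2 fold change was -0.13 in batch 1 (SE 0.04; edgeR adjusted p = 1.00; exact permutation p = 0.00866, and 0.435 on the log2(TPM + 1) scale) and 0.05 in batch 2 (SE 0.08; edgeR adjusted p = 0.857). The difference between the batches was 0.20 (SE 0.10; edgeR unadjusted p = 0.0478, adjusted p = 0.632), in a test that called 0 of 19476 genes (0%; 1529 at an unadjusted p under 0.05; DESeq2 and limma called 0). Without the libraries labelled HET replicate 6 and WT replicates 1 and 2, the batch 1 value was -0.097 (exact permutation p = 0.0476) and the difference between batches 0.15.

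For the other 7 members the fit gave narrow intervals around no change, except for Itga2. Expressed as the HET level in percent of WT over all mice, Ddr1 was at 100% (95% interval 94.0% to 106%), Itga1 at 103% (98.8% to 108%) and Itga3 at 99.4% (93.9% to 105%). Itgav was at 103% (97.4% to 109%), Itgb1 at 102% (97.7% to 107%) and Itgb6 at 104% (96.0% to 113%). For the scarce Itga2 the value was 93.4% (74.9% to 117%), the widest interval of the 9, from 88 to 278 counts per library. In batch 2 Itga3 was at 93.3% (86.1% to 101%, edgeR adjusted p = 0.631). Its exact permutation p there was 0.149, and 0.0467 on the log2(TPM + 1) scale (difference -0.22), where the median of all genes was also negative. These p-values were not adjusted over the members. Without the 3 libraries that went against their labels, the exact permutation p of Itga1 in all mice was 0.0126 (difference 0.071 on the log2 scale), and no edgeR call was gained.

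**Figure D2:**
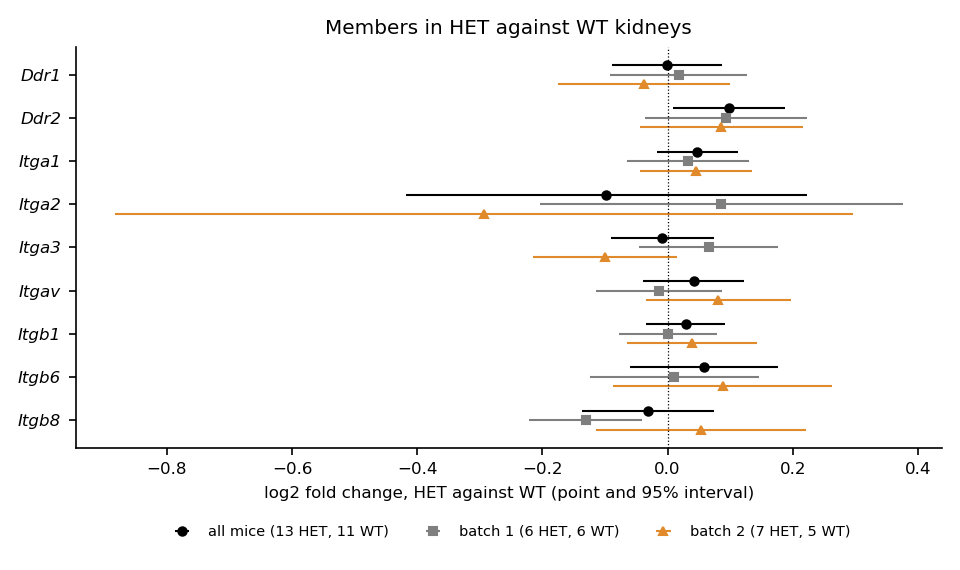
Log2 fold change of HET against WT for each member (point and 95% interval from edgeR) in all mice, batch 1 and batch 2. The intervals include 0 for every member, apart from Ddr2 in all mice (0.01 to 0.19) and Itgb8 in batch 1 (-0.22 to -0.04), and Itga2 has the widest.

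To relate the receptors to their matrix ligands across mice, a collagen score was formed as the mean log2 CPM of Col1a1, Col1a2, Col3a1, Col5a1, Col5a2, Col6a1, Col6a2 and Col6a3, the chains of the fibrillar collagens and of type VI collagen. No member is in it. After removal of batch means the score ran from -0.32 in HET replicate 10 to 0.33 in HET replicate 1, and the genotypes did not differ in it beyond their spread (HET minus WT 0.04; exact permutation p = 0.631). The slope of each gene on the score, with batch and genotype as terms, is its change in log2 CPM per unit (1 log2 step) of the score.

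Ddr2 rose with the collagen score. It was 1 of 9 members called, and the others were not, beside 2.25% of all genes tested (1.96% called higher and 0.293% lower, that is 382 and 57 genes, against 520 and 196 with DESeq2 and 6439 and 7 with limma on log2(TPM + 1)). In batch 1, the kidney with the highest score (HET replicate 1) had the highest Ddr2, 42.7 CPM, and the kidney with the lowest score (WT replicate 6) the lowest, 31.6 CPM. In batch 2, HET replicate 10 and WT replicate 11 had the 2 lowest scores; their Ddr2 was 43.8 and 36.0 CPM, and the remaining kidneys had 42.7 to 49.3. The Ddr2 slope was 0.40 (SE 0.09; 95% interval 0.22 to 0.59; edgeR adjusted p = 0.0123), or 0.08 for 1 within-batch SD of the score. Leaving out each mouse in turn gave 0.34 (without WT replicate 11) to 0.44 (without HET replicate 10), called in 24 of 24 fits. Within batch 1 alone the slope was 0.47 (edgeR adjusted p = 0.261) and within batch 2 alone 0.39 (adjusted p = 0.223), neither called. Without the 3 libraries that went against their labels it was 0.42 (edgeR adjusted p = 0.00986).

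The spread-based companion of this fit was Pearson's r of batch-centred log2 CPM with 100000 permutations of the score within batch, adjusted over all 19476 genes, of which 1.67% were called. For Ddr2, r was 0.694 (permutation p = 0.00018, adjusted p = 0.0211) and Spearman's rho was 0.566 (permutation adjusted p = 0.14). The Pearson value was 0.782 in batch 1 and 0.609 in batch 2. Without the 2 mice farthest from the median score, HET replicate 10 and WT replicate 11, r was 0.664 (permutation adjusted p = 0.136). Both had low scores, and HET replicate 1, with the highest, stayed in.

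In this fit no slope of the other 8 members on the collagen score passed the threshold. With Col1a1 alone as the score Itga3 was called (0.22, edgeR adjusted p = 0.0486), as it was without WT replicate 1 (0.32, adjusted p = 0.0457). On the log2(TPM + 1) scale, where the median of all genes was 0.25, limma called 6 of 9 members: Ddr1 at 0.54, Ddr2 at 0.38, Itga1 at 0.28, Itga3 at 0.60, Itgav at 0.32 and Itgb1 at 0.44. The laminin receptor chain Itga3 had 0.27 (SE 0.10; edgeR adjusted p = 0.162) and the epithelial collagen receptor Ddr1 0.23 (SE 0.11; adjusted p = 0.310). Itga2 had the largest estimate and the largest error, 0.83 (SE 0.39; edgeR adjusted p = 0.337). The slopes were 0.13 for Itgb1 (SE 0.08), 0.09 for Itgav (SE 0.10) and 0.01 for Itga1 (SE 0.08). By rank, however, Itgb1 was closer to the score than Ddr2 was, with a Spearman's rho of 0.640 (permutation adjusted p = 0.0665) against 0.566. Pearson's r of Itgb1 was 0.402 (permutation adjusted p = 0.39), with 0.80 in batch 1 and 0.173 in batch 2. On the log2(TPM + 1) scale it was 0.822 and called, beside 33.3% of all genes. The latent TGF-beta binding chains had -0.20 for Itgb6 (SE 0.15) and -0.25 for Itgb8 (SE 0.13; edgeR adjusted p = 0.373), and on the log2(TPM + 1) scale 0.10 and 0.088. The median slope of the 9 members was 0.13, beside -0.04 for all genes tested. That the other slopes differ from that of Ddr2 was not tested.

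**Figure D3:**
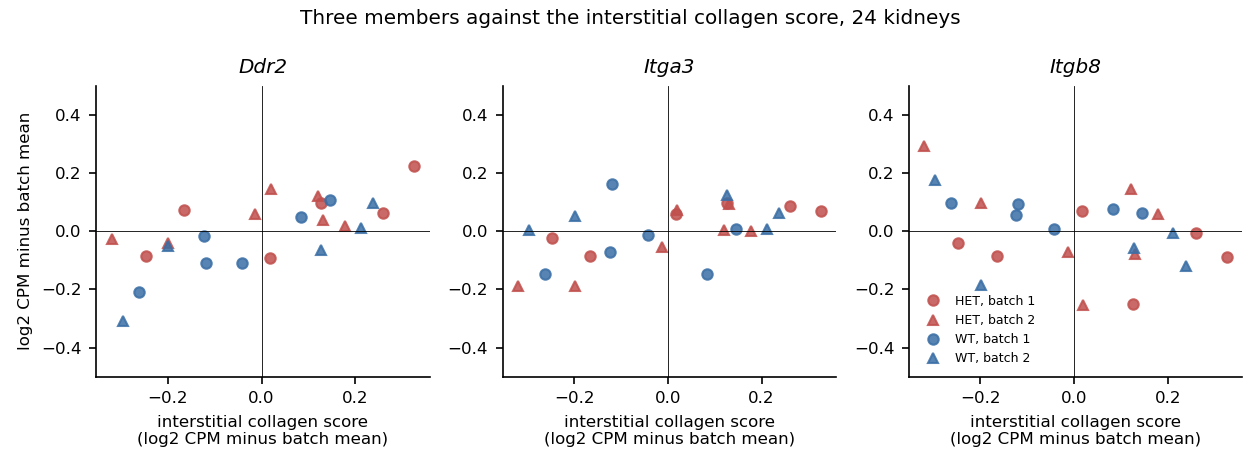
Log2 CPM of Ddr2, Itga3 and Itgb8 against the interstitial collagen score, both minus their batch mean; each point is 1 of 24 kidneys, coloured by genotype and shaped by batch. Ddr2 climbs from left to right (slope 0.40), Itga3 less steeply (0.27, not called), and Itgb8 has a negative slope with wide scatter (-0.25, not called; 0.088 on the TPM scale).

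The collagen score moved with markers of several cell types. Over 18 relations, it correlated most with the macrophage markers (r = 0.861, rho = 0.895; permutation adjusted p = 0.00018 for each) and the fibroblast markers (r = 0.771, rho = 0.748; permutation adjusted p = 0.00072 and 0.00135). Without the 2 mice farthest in the collagen score these were 0.813 and 0.694. It also correlated with the T cell markers (r = 0.505), the mesangial and smooth muscle markers (r = 0.499) and, negatively, the proximal tubule markers (r = -0.504; permutation adjusted p = 0.0467 for each). Without the same 2 mice these were 0.362, 0.26 and -0.519, and rho was 0.542, 0.385 and -0.43 (permutation adjusted p = 0.0406, 0.215 and 0.151). All 5 fibroblast markers and all 7 macrophage markers were measured and none was at 0 in every library. The fibroblast markers were Pdgfra, Dcn, Lum, Dpt and Col14a1. All of them but Pdgfra encode matrix proteins, so this score does not measure fibroblasts apart from matrix genes. Their summed levels overlapped between genotypes, with 174 to 260 CPM of fibroblast and 242 to 346 CPM of macrophage markers in batch 1 and 216 to 317 and 327 to 503 CPM in batch 2. With the fibroblast marker score as a further term the Ddr2 slope was 0.23 (edgeR adjusted p = 0.684), and with the macrophage score it was 0.39 (adjusted p = 1.00). Those fits called 50 and 5 genes, against 439. In bulk kidney, more cells of a type and more RNA per cell cannot be told apart, which holds for every level and slope given here.

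Ddr2 itself followed the fibroblast markers, most of which are matrix genes. Over 117 relations of the 9 members with 13 cell type lists, 1 was called: Ddr2 with fibroblast markers (r = 0.714, permutation adjusted p = 0.0269; rho = 0.622, permutation adjusted p = 0.157), at 0.588 in batch 1 and 0.833 in batch 2, and 0.756 without the 3 libraries that went against their labels. Without WT replicates 3 and 11, the kidneys farthest in the fibroblast score, r was 0.566. Its r with the macrophage markers was 0.543 and with the proximal tubule markers -0.58 (permutation adjusted p = 0.141 for both). Itga2 had 0.596 with the urothelial markers (permutation adjusted p = 0.162; -0.085 in batch 1 and 0.806 in batch 2), whose 6 genes summed to 6.28 to 17.8 CPM, and Itga3 had 0.561 with the macrophage markers (adjusted p = 0.141).

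**Figure D4:**
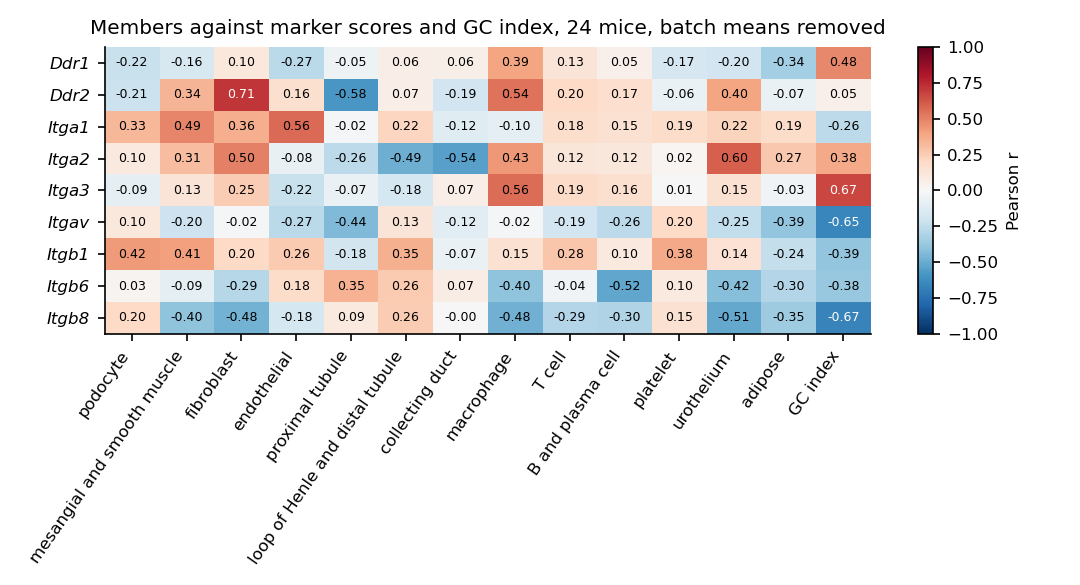
Pearson r of each member with each marker score and with the GC index over 24 mice, batch means removed; red is positive and blue negative. Ddr2 is reddest against the fibroblast markers (0.714), and Itgb8 and Itgav are blue (-0.67 and -0.653) and Itga3 red (0.667) against the GC index.

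The other genes of the matrix adhesion pathway were counted, here and in the next paragraph, on the slope on the collagen score. Of all genes tested, 2.25% were called on it (1.96% higher and 0.293% lower), and the median of all genes was -0.04. Of 18 other integrin subunits tested, 6 were called higher and 0 lower (median 0.54): the leukocyte chain Itgb2 at 1.35 (SE 0.19), its alpha partner Itgam at 1.53 (SE 0.36), Itgax, Itga4, Itga9 at 0.63 (SE 0.11) and Itgb5 at 0.30 (SE 0.08). Of 11 other matrix receptors 3 were higher and 0 lower (median 0.21), namely the collagen uptake receptor Mrc2 at 0.85 (SE 0.11), the hyaluronan receptor Cd44 at 1.58 (SE 0.29) and the laminin receptor Bcam at 0.43 (SE 0.10). In the integrin adhesion complex, which links the tails of these receptors to actin, 2 of 22 were higher and 1 lower (median 0.10): Actn1 at 0.71 (SE 0.11), Flna at 0.66 (SE 0.10) and Tns1 at -0.33 (SE 0.08).

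Among the ligands, of 11 RGD and other integrin ligands 4 were higher and 0 lower (median 0.37): fibronectin (Fn1) at 1.05 (SE 0.13), fibrillin 1 (Fbn1) at 0.83 (SE 0.09), tenascin C (Tnc) at 1.01 (SE 0.18) and osteopontin (Spp1) at 1.18 (SE 0.26). Of 15 basement membrane ligands 3 were higher, Col4a1 at 0.52 (SE 0.08), Col4a2 at 0.49 (SE 0.07) and Nid1 at 0.41 (SE 0.11), and 1 lower, Lama3 at -0.37 (SE 0.10; median 0.26). In the list of latent TGF-beta and its activation, 3 of 12 were higher and 0 lower (median 0.31): Ltbp2 at 1.47 (SE 0.26), the receptor Tgfbr2 at 0.27 (SE 0.06) and the macrophage protein Nrros, which tethers latent TGF-beta, at 0.85 (SE 0.21). Of 6 TGF-beta targets 1 was higher, Pmepa1 at 0.37 (SE 0.09; median -0.0053). None of these lists held a gene called in HET against WT in all mice. Every gene called in these lists kept its sign with DESeq2 and with RLE size factors, though with RLE Itgb5 (edgeR adjusted p = 0.0544) and Nid1 (0.0562) were no longer called. With the macrophage score as a further term no gene of these lists was called, and Itga4, Itgam, Itgax and Nrros had negative slopes. With the fibroblast score 3 were called, Ltbp2, Col4a1 and Col4a2, and Nid1 had a slope of -0.037. On the log2(TPM + 1) scale Tns1 (0.09) and Lama3 (0.19) took the opposite sign, though they stayed below the median of all genes there (0.25). Without the 3 libraries that went against their labels, the counts of higher and lower genes were 6 and 0 of 18 integrin subunits, 3 and 0 of 11 other receptors, 3 and 0 of 22 adhesion genes, 4 and 0 of 11 RGD ligands, 2 and 0 of 15 basement membrane ligands, 3 and 0 of 12 latent TGF-beta genes and 1 and 0 of 6 targets. The number of all genes called in that fit was similar to that with all libraries.

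On the count scale, but not on the TPM scale, Itgb1 fell with the second score, the mean log2 CPM of the glomerular basement membrane genes Col4a3, Col4a4, Lama5, Lamb2 and Agrn. Col4a5 was left out as the gene altered in the model. Itgb1 was 1 of 9 members called (lower), beside 7.63% of genes tested (2.27% higher and 5.36% lower, or 442 and 1044 genes, against 10554 and 14 with limma on log2(TPM + 1)), with a slope of -0.70 (SE 0.19; 95% interval -1.09 to -0.31; edgeR adjusted p = 0.0231). In batch 2, HET replicate 9 had the lowest score and the highest Itgb1 (378 CPM), and the other kidneys had 303 to 357 CPM. The call held in 20 of 24 fits that left out a mouse, and was lost without HET replicate 1 (-0.50), HET replicate 6 (-0.54), HET replicate 9 (-0.57) or WT replicate 1 (-0.53). It was also lost without the 3 libraries that went against their labels (-0.53, edgeR adjusted p = 0.123), without the filter on low counts (-0.51, edgeR adjusted p = 0.123) and in each batch alone. On the log2(TPM + 1) scale, where the median of all genes was 0.52, the slope took the opposite sign (0.61).

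The HET minus WT difference in this score did not pass 0.05 once adjusted over 9 score comparisons: it was -0.08 in all mice (exact permutation p = 0.0129, adjusted p = 0.0581), -0.026 in batch 1 (p = 0.463, adjusted p = 0.980) and -0.13 in batch 2 (p = 0.00758, adjusted p = 0.0581). It was -0.09 in all mice without the 3 libraries that went against their labels (exact permutation p = 0.00463, not adjusted). The laminin receptor chain Itga3, whose ligand chains Lama5 and Lamb2 are in the score, had a slope of 0.84 (SE 0.27, edgeR adjusted p = 0.0542). It passed the threshold with DESeq2 (adjusted p = 0.0237), without the filter on low counts (edgeR adjusted p = 0.0284) and with limma on log2(TPM + 1) (1.10), and in 5 of 24 fits that left out a mouse. In either batch alone, and with the GC index described below as a term, the Itga3 slope was positive but not called. Itga3 (r = 0.667) and this score (r = 0.659) both went with that index. Ddr1 had 0.78 (SE 0.31), Itgav -0.68 (SE 0.27) and Itgb8 -0.84 (SE 0.37), with edgeR adjusted p of 0.124, 0.136 and 0.175. The Itgav and Itgb8 slopes had the opposite sign on the log2(TPM + 1) scale (0.46 and 0.21, below the median of all genes there) and in batch 1 alone (0.019 and 0.11), and that of Itgb8 also with the GC index described below as a term (0.14). Ddr1 was called with limma (1.00) and without HET replicate 1 (0.89, edgeR adjusted p = 0.0299). Itga2 had 2.30 (SE 1.10) and Ddr2 -0.06 (SE 0.34).

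On the tubular injury score (Havcr1, Lcn2, Krt20, Vcam1, Sox9, Cdkn1a and Clu) 0 of 9 members were called by edgeR, beside 0.852% of genes tested (0.760% higher and 0.0924% lower). Among the 9, 3 had an unadjusted p under 0.05, beside 10.9% of all genes tested: Itga2 at 0.68 (SE 0.22; edgeR adjusted p = 0.165), Ddr2 at 0.17 (SE 0.06; adjusted p = 0.256) and Itga3 at 0.13 (SE 0.06; adjusted p = 0.418). DESeq2 called no member either, and limma on log2(TPM + 1), where the median of all genes was 0.17, called 6 (Ddr1, Ddr2, Itga2, Itga3, Itgav and Itgb1). The limma fit called many times more of all genes than the edgeR fit, nearly all of them higher (counts under the processing alternatives below). Itgb6, a chain known to be induced in injured epithelium, had -0.15 (SE 0.09; edgeR adjusted p = 0.591). The injury score and the collagen score moved together (r = 0.636, rho = 0.65; permutation adjusted p = 0.00918 and 0.00702), with r = 0.539 without the 2 mice farthest in the collagen score.

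**Figure D5:**
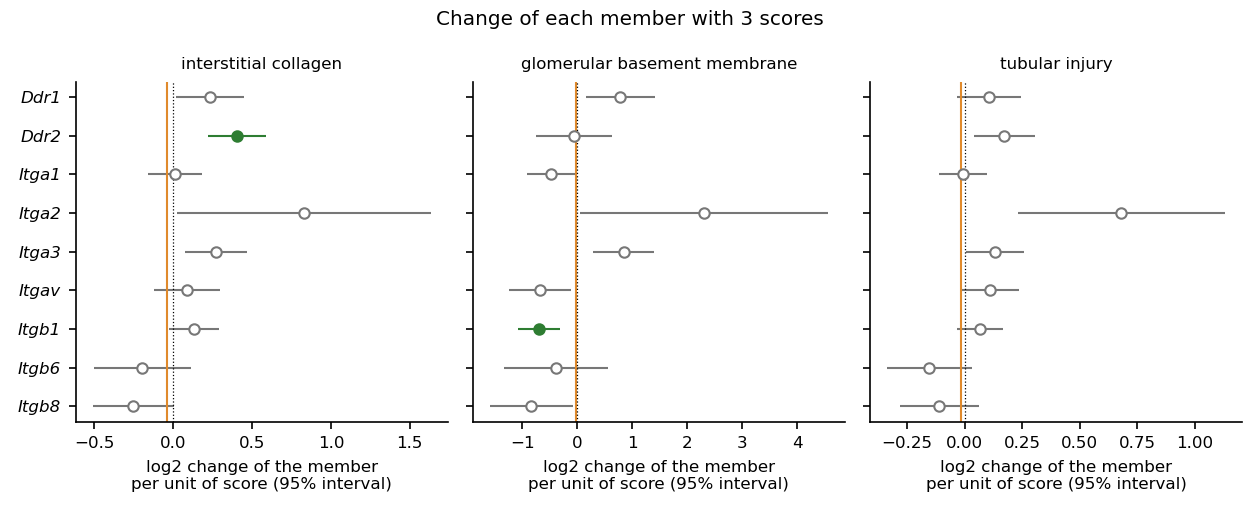
Slope of each member (point and 95% interval) on the collagen, glomerular basement membrane and tubular injury scores, with an orange line at the median of all genes tested; filled points are called at an adjusted p under 0.05. The filled points are Ddr2 on the collagen score (0.40) and Itgb1 on the basement membrane score (-0.70; 0.61 on the TPM scale, where the median of all genes is 0.52).

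Part of the variation of 3 members went with the base composition of the libraries. The GC index of a library is the mean log2 CPM of the fifth of genes with the highest transcript GC (at least 54.98%) minus that of the fifth with the lowest (at most 43.04%), batch-centred. The transcripts of Ddr1 and Itga3 are 59.7% and 57.9% GC, and those of the other 7 members 40.4% to 45.1%. Against the index, r was 0.667 for Itga3 (permutation adjusted p = 0.00763), -0.67 for Itgb8 (adjusted p = 0.0281) and -0.653 for Itgav (adjusted p = 0.0227), beside 8.79% of genes called. Spearman's rho was 0.573, -0.444 and -0.563 in that order, and r without the 2 libraries farthest in the index (HET replicate 10 and WT replicate 8) was 0.53, -0.61 and -0.66. The r values in batch 1 alone were 0.489, -0.387 and -0.468, and in batch 2 alone 0.824, -0.757 and -0.749. For Ddr2 it was 0.049. The basement membrane score itself had r = 0.659 with the index and the collagen score 0.342. With the index as a term, the Ddr2 slope on the collagen score was 0.43 (edgeR adjusted p = 0.0140), and the Itgb1 slope on the basement membrane score was -0.82 but not called (adjusted p = 0.126). In the same fits the basement membrane slopes of Itgb6 (-0.39 without it) and Itgb8 (-0.84) were 0.21 and 0.14, and the HET against WT differences of Ddr1 and Itga3 were 0.020 and 0.017. Its part in the correlations between members and with markers was not tested.

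Few of the relations among the members themselves passed the test. Ddr1 and Itga3, the 2 members with GC-rich transcripts, had r = 0.703 (0.672 in batch 1 and 0.736 in batch 2; rho = 0.605), called among all genes against Itga3 (permutation adjusted p = 0.0379, beside 1.28% of genes) and not against Ddr1 (adjusted p = 0.108, 0% of genes). Without HET replicates 9 and 10, farthest in Itga3, it was 0.61, and without HET replicate 9 and WT replicate 8, farthest in Ddr1, 0.587. Itgav and Itgb8, partners in the alphav-beta8 receptor, had r = 0.64 (0.49 and 0.72 in the batches; rho = 0.507), called against Itgb8 (permutation adjusted p = 0.0403, beside 5.19% of genes) and not against Itgav (adjusted p = 0.0735, 0.642%). Without HET replicates 8 and 10, farthest in Itgb8, it was 0.607, and without HET replicate 12 and WT replicate 7, farthest in Itgav, 0.56. Itgav with Itgb1, also a partner, had 0.597 (0.395 and 0.703 in the batches; permutation adjusted p = 0.0928 against Itgav), and Itgav with Itgb6 had 0.35. Itgb6 and Itgb8 had 0.574, from 0.092 in batch 1 and 0.801 in batch 2, and Itga3 and Itgb8 had -0.516 (permutation adjusted p = 0.102 against Itgb8). Leaving out the 3 libraries that went against their labels gave r = 0.721 for Ddr1 with Itga3, 0.592 for Itgav with Itgb8 and 0.641 for Itgav with Itgb1.

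The 3 genes with the most similar pattern to each member, by r over the 24 kidneys among genes with a mean of at least 5 CPM, were as follows, as a description. For Ddr2 they were Olfml3 (0.778), Sdk2 (0.752) and C7 (0.751), and for Ddr1 Ttc7 (0.792), Plec (0.785) and Sipa1l3 (0.782). Itga1 was nearest to Srpk2 (0.743), Angptl2 (0.714) and Gpx6 (0.693). Itga2 was nearest to Aldh1a3 (0.776), Ikbke (0.729) and Col12a1 (0.717), the last a collagen gene. Itga3 was nearest to Stab1 (0.844), to the basement membrane proteoglycan gene Agrn (0.804) and to Fam83g (0.797). Itgav was nearest to Acsl4 (0.873), Sptlc2 (0.866) and Man1a2 (0.828), and Itgb1 to Pdcd10 (0.809), Fam92a (0.798) and the adaptor gene Nck1 (0.789). Itgb6 was nearest to Pdpk1 (0.853), Rbbp4 (0.815) and Dmxl1 (0.809), and Itgb8 to Fam126b (0.883), Wls (0.883) and Dr1 (0.873). These are the highest r values among many genes. No gene was called against Ddr1, Ddr2, Itga1, Itga2 or Itgb1 by permutation after adjustment. Some of the r values came mostly from 1 batch. For Itga2 with Ikbke r was 0.322 in batch 1 and 0.893 in batch 2, and for Itga1 with Gpx6 it was 0.859 and 0.301.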

How the data were processed

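Reads were handled by the authors with fastp, STAR and featureCounts on GRCm38 (mm10), per the submitters' processing notes, which list these names without versions, order, annotation or strand setting. The authors deposited expected counts, TPM and FPKM per gene and library in 1 table. Per library, 11.8% to 15.4% of the expected counts were not whole (off by over 0.001), as when reads shared by genes are split, and Ddr2, Itga1, Itga2 and Itgb6 had such values; all were rounded before testing. The deposited TPM values give levels and, as log2(TPM + 1), an alternative; the deposited FPKM were not used.

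Genes were kept by filterByExpr (minimum count 10) over genotype and batch groups in edgeR 4.0.16 (R 4.3.3), which left 19476 genes holding 99.95% of counts, 18494 in batch 1 and 17955 in batch 2. Libraries were scaled by TMM and tested by edgeR's robust quasi-likelihood test with Benjamini-Hochberg adjustment over all genes (threshold 0.05; intervals 95%). CPM are counts scaled to a common library total after TMM, on the log2 scale with a prior count of 2. Scores are means of log2 CPM. Correlations used 100000 permutations within batch, and differences of single genes exact permutations of genotype within batch, which have a smallest p of 0.00217 in batch 1 and 0.00126 in batch 2. The tests were checked on simulated data.

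Alternatives were DESeq2 1.42.0, limma 3.58.1 on log2(TPM + 1), RLE size factors, no filter, each library left out, each batch alone, other score genes, further covariates, and no libraries that went against their labels. The smallest chi-square per degree of freedom between 2 libraries of the same genotype label and batch was 9.51 over 61 pairs, so none of these was a copy of another. Pairs across genotype labels or batches were not compared. The labels name separate mice; p-values measure the spread between them. Named genes were the 9 members, the score genes, up to 4 genes per pathway list by p of the collagen slope (further called genes were named after their values were seen), and the 3 most correlated genes per member. The members, lists and the libraries left out were chosen with earlier results of these data known. Gene positions came from GENCODE M21, in which 55141 of 55487 identifiers were found, and promoters from RefSeq, in which all 9 members matched. Transcript GC was known for 99.8% of the genes tested.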

Additional observations from a re-analysis of the deposited data

Results flagged for a closer look

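Ddr1 in HET replicate 9 was 6.427 on the log2 CPM scale, and the nearest of the other 6 HET kidneys of batch 2 was 6.673. This gap was wide for a group of 7 by Dixon's test (gap over range 0.582). Ddr1 in WT replicate 8 was 6.901, and the nearest of the other 4 WT kidneys of batch 2 was 6.724 (gap over range 0.775 in a group of 5). These were 2 of 36 groups of a member's values, and chance alone flags about 1 in 20 groups. HET replicate 9 also had the lowest basement membrane score, 7.48, and the second lowest GC index, -0.168, and WT replicate 8 the highest of both, 7.81 and 0.232; their part in the Ddr1 values was not tested.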

How the results depend on the processing

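The Ddr2 slope on the collagen score was positive under all 13 alternatives to the edgeR fit (0.23 to 0.47) and called under 9 of them; it was not called in either batch alone or with the fibroblast or macrophage score as a term. The Itgb1 slope on the basement membrane score was also not called without the filter (-0.51). The counts of called genes moved as follows. For HET against WT without the 3 libraries that went against their labels, edgeR called 2 genes in all mice (1 higher, 1 lower) and 2 in batch 1. The 2 in all mice were the genes by which those libraries had been picked. With all libraries, in batch 1 DESeq2 called 1 and the unfiltered fit 1. In batch 2 DESeq2 called 27, the unfiltered fit 3 and limma on log2(TPM + 1) 0, and edgeR 1 to 3 when a mouse was left out. On the collagen slope, where edgeR called 439 genes (382 higher, 57 lower), DESeq2 called 716 (520 and 196), limma on log2(TPM + 1) 6446 (6439 and 7), Col1a1 as the score 667, batch 1 alone 44, batch 2 alone 81, the fibroblast covariate 50 and the macrophage covariate 5, and leaving out a mouse gave 238 (without HET replicate 10) to 557 (without HET replicate 12). On the basement membrane slope, with 1486 called (442 higher, 1044 lower), limma called 10568 (10554 and 14), batch 1 alone 0 and the GC covariate 65; the unfiltered fit split 523 to 733 and the fit without the 3 libraries 560 to 761, and leaving out a mouse gave 481 (without HET replicate 9) to 1777 (without HET replicate 1). On the injury slope, with 166 called (148 higher, 18 lower), DESeq2 called 399 (289 and 110), limma 2562 (2560 and 2), batch 1 alone 20 and batch 2 alone 9, and leaving out a mouse gave 92 (without WT replicate 11) to 280 (without HET replicate 9). Between batches edgeR called 6262 genes higher and 6067 lower, and limma 15449 and 2201. On the TPM scale the median of all genes was 0.66 for batch 2 against batch 1, 0.25, 0.52 and 0.17 for the collagen, basement membrane and injury slopes, -0.11 for HET against WT in batch 2 and -0.15 for the interaction.

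The signs of member values changed as follows, on the log2 scale; of values that edgeR called this was so for 4, Itgav, Itgb6 and Itgb8 between batches and Itgb1 on the basement membrane slope, under limma alone. With limma on log2(TPM + 1), the HET against WT difference in all mice was -0.022 for Itgb1, and the difference in batch 1 was -0.066 for Itga2 and 0.059 for Itgav. On the same scale, the HET against WT difference in batch 2 was -0.045 for Ddr2, -0.051 for Itga1, -0.048 for Itgav, -0.11 for Itgb1 and -0.083 for Itgb8, and the genotype by batch interaction was -0.14 for Ddr2, -0.15 for Itga1, -0.11 for Itgav, -0.17 for Itgb1, -0.032 for Itgb6 and -0.011 for Itgb8. There too, the difference of batch 2 from batch 1 was 0.55 for Itga1, 0.25 for Itgav, 0.46 for Itgb6 and 0.34 for Itgb8, and the collagen slope was 0.10 for Itgb6 and 0.088 for Itgb8. Under limma again, the basement membrane slope was 0.57 for Ddr2, 0.50 for Itga1, 0.46 for Itgav, 0.61 for Itgb1, 0.093 for Itgb6 and 0.21 for Itgb8, and the injury slope was 0.21 for Itga1, 0.0075 for Itgb6 and 0.069 for Itgb8. On that scale the correlation with the collagen score was 0.122 for Itgb6 and 0.192 for Itgb8, and the exact permutation tests reversed with the limma differences. With the GC index as a term, the HET against WT difference in all mice was 0.020 for Ddr1 and 0.017 for Itga3, and the basement membrane slope was 0.21 for Itgb6 and 0.14 for Itgb8. Likewise, the injury slope was 0.0019 for Itga1. In batch 1 alone, the basement membrane slope was 0.019 for Itgav, 0.40 for Itgb6 and 0.11 for Itgb8, and the injury slope was 0.050 for Itgb8. In batch 2 alone, the basement membrane slope was 0.60 for Ddr2 and 0.035 for Itga1, and the injury slope was 0.059 for Itga1. Likewise, the correlation with the collagen score was -0.060 for Itga1 and -0.020 for Itgav. With the fibroblast score as a term, the collagen slope was -0.20 for Itga1 and -0.062 for Itga2. With the macrophage score as a term, the collagen slope was 0.25 for Itgb6 and 0.20 for Itgb8. With Col1a1 alone as the score, the collagen slope was -0.016 for Itga1. Without the batch term, the HET against WT difference in all mice was 0.0058 for Ddr1 and -0.015 for Itgav. Without the filter, the genotype by batch interaction was -0.014 for Ddr2, and the basement membrane slope was 0.14 for Ddr2. Likewise, the injury slope was 0.0097 for Itga1. With the 3 libraries left out, the difference in batch 1 was -0.0049 for Ddr1, 0.013 for Itgav and -0.0050 for Itgb6, and the genotype by batch interaction was -0.033 for Ddr2 and -0.039 for Itga1. Likewise, the basement membrane slope was 0.25 for Ddr2, and the injury slope was 0.017 for Itga1. There also, the correlation with the collagen score was -0.019 for Itga1. By exact permutation there, the difference in batch 1 was -0.00103 for Ddr1, 0.0157 for Itgav and -0.00077 for Itgb6. Without the 2 mice farthest from the median score, the correlation with the collagen score was -0.0019 for Itga1. Leaving out each mouse in turn changed the sign of 13 values, none of them called. In these ranges, the HET against WT difference in all mice was -0.030 to 0.021 for Ddr1 and -0.035 to 0.0081 for Itga3, and the difference in batch 1 was -0.016 to 0.049 for Ddr1, -0.044 to 0.013 for Itgav, -0.015 to 0.017 for Itgb1 and -0.024 to 0.059 for Itgb6. The HET against WT difference in batch 2 was -0.054 to 0.0079 for Ddr1, and the genotype by batch interaction was -0.068 to 0.0049 for Ddr1, -0.049 to 0.049 for Ddr2 and -0.034 to 0.047 for Itga1. Last, the collagen slope was -0.030 to 0.042 for Itga1, the basement membrane slope was -0.28 to 0.30 for Ddr2 and the injury slope was -0.031 to 0.018 for Itga1.

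The alternatives with a GC, fibroblast or macrophage term and without the 3 libraries, and the list counts with those marker terms, were added after the data were seen; the cause of the changes above was not tested. No paired analysis was possible because the labels tie no HET mouse to a WT mouse and the replicate numbers follow accession order. Depth limits Itga2 most, which had 88 to 278 counts per library.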
